A study of Zea mays with 229 samples.

Results

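The phenylalanine ammonia-lyase (PAL) genes of maize were followed as targets of 23 regulators introduced into leaf protoplasts, cells whose walls had been digested away. The family was taken as 10 gene identifiers, and a member counted as a target where the target column of the authors' deposited table held its identifier. Of these 10 genes, 9 were among the 19787 distinct target genes of the table, and Zm00001d033286 was not among them. The family name came with the identifiers, since the table pairs no identifier with a gene name. The identifiers fall into a pair (Zm00001d003015 and Zm00001d003016), a cluster of 4 (Zm00001d017274, Zm00001d017275, Zm00001d017276 and Zm00001d017279), a cluster of 3 (Zm00001d051161, Zm00001d051163 and Zm00001d051166) and the single Zm00001d033286. Genes of 1 cluster are called tandem copies here, because identifiers of this annotation were numbered along each chromosome.

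The study used the TARGET assay, in which a plasmid with a transcription factor is brought into protoplasts and the responding genes are read by RNA sequencing. All libraries came from the inbred line B73, from seedlings kept in the dark before the second leaf was digested, and protoplasts were sorted for red fluorescence from the p1107 plasmid. The labels give 152 libraries with 1 of 23 factor plasmids (76 with nitrogen, 76 without) and 77 with the empty vector (39 with nitrogen, 38 without), in 11 batches. Within a batch, each plasmid had 3 to 4 factor libraries or 2 to 4 empty vector libraries per nitrogen condition. The labels do not say whether these came from separate protoplast preparations. The factor plasmids were MYB21, MYB34, MYB56, MYB81, MYB121, MYBR3, ZmMYB38, NAC5, NAC61, NAC66, NAC109, WRKY36, WRKY107, bHLH47, bHLH92, bZIP9, EREB115, GLK44, G2, HB6, KN1, NLP3 and Orphan42. Titles of the libraries tie 20 of these names to regulator identifiers. The other 3 regulators, Zm00001d003176, Zm00001d032024 and Zm00001d033859, are called by identifier. An edge of the table names a regulator and a gene that the authors listed for it. It carries no direction, size, error, nitrogen condition or batch, so each result below is a count of listings, and the depth behind an edge is unknown. Overexpression from a plasmid in isolated, dark-grown cells limits what an edge says of an intact leaf.

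PAL removes the amino group of phenylalanine to give cinnamic acid, the first step of the phenylpropanoid pathway. From this acid plants make lignin, flavonoids, anthocyanins and many defence compounds, and in grasses some of these enzymes also accept tyrosine. In several plants, MYB factors are known to bind the promoters of phenylpropanoid genes, and NAC and WRKY factors are known from secondary wall formation and from defence.

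Of the 23 regulators in the authors' deposited table, 22 listed at least 1 PAL gene, and Zm00001d033859 listed none. Lists held 3.33% (NAC109) to 41.9% (NAC61) of all listed genes, and that of Zm00001d033859 held 3.35%. The count of 22 was not set beside that for other sets of 9 listed genes, so it is not read as particular to PAL genes. The family received 84 edges of 230 possible ones, or 36.5%. Over the 9 listed members this was 40.6%, beside 20.3% for all listed genes and all regulators. Members thus had a median of 10 regulators each when listed, and 9 with the unlisted gene counted at 0, beside a median of 3 over all listed genes. The table does not say which genes the authors tested, so the comparison with all listed genes covers genes listed for at least 1 regulator.

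The copies differed widely in how many regulators listed them. Zm00001d017275 stood first, with 16 of 23 regulators (69.6%), a number reached or passed by 2.58% of all listed genes. Zm00001d017279 and Zm00001d051163 followed with 12 regulators each, reached by 9.26% of listed genes. Zm00001d003015 had 11 and Zm00001d017274 had 10. Lower in this order came Zm00001d051161 with 8, Zm00001d017276 with 7 and Zm00001d051166 with 6. Zm00001d003016 had 2, and 73.9% of all listed genes had at least as many. An edge has no error, so neighbours in this order cannot be told apart by a spread, and steps of 1 regulator rest on a single listing.

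**Figure D1:**
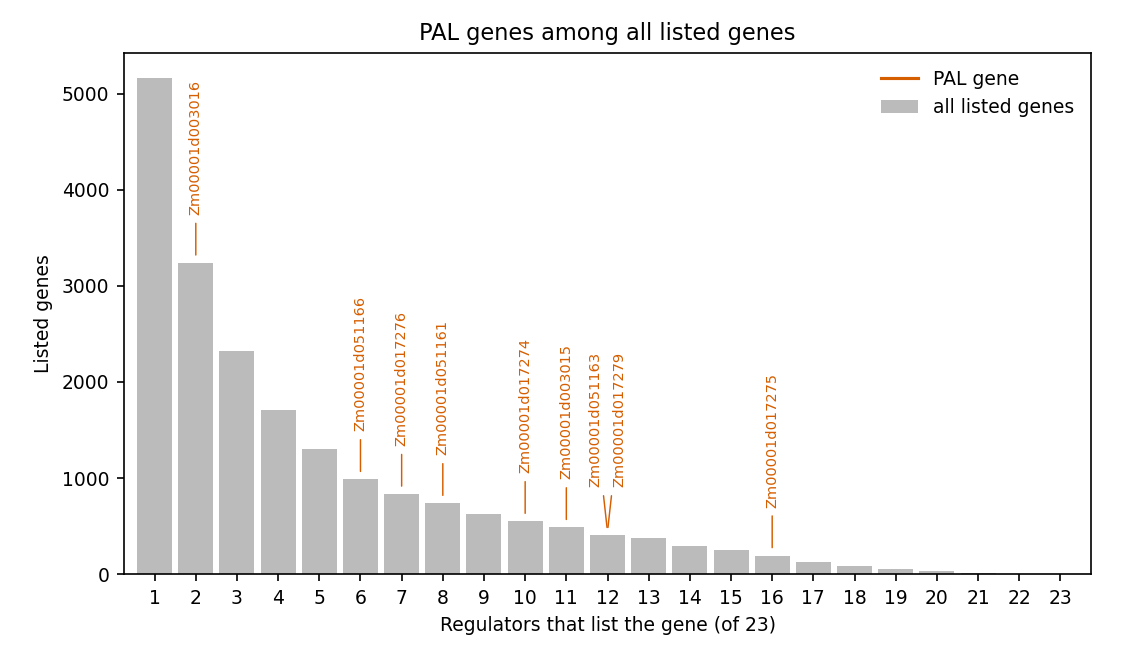
Number of listed genes (vertical axis) by the number of regulators that list a gene (horizontal axis, of 23), with the 9 listed PAL genes marked in orange and all listed genes as grey bars. Zm00001d003016 sits at 2 regulators, and the other 8 marked genes sit between 6 and 16, to the right of the median of 3 over all listed genes.

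Read by regulator, MYB121 listed all 9 PAL genes found in the table, while its list held 32.8% of all listed genes. It was the only regulator to do so. MYB56 listed 8 of the 9, lacking Zm00001d003016, with a list of 10.4% of all listed genes. Zm00001d003176 listed 7, all of them also in the MYB56 list, with 9.45% of all listed genes. These 7 edges stood in a stretch of 1335 consecutive rows, each of whose genes was also in the MYB56 list. The 5 that fell in the first MYB56 stretch and the 2 in the second each stood in the same order in both regulators' rows. Without those 7 edges the family had 77 edges, 6 in place of 7 regulators listed at least 5 PAL genes, and each of the 7 genes had 1 regulator fewer than the counts given here.

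NAC61 (41.9% of all listed genes) and WRKY107 (32.3%) listed 6 PAL genes each, with 4 in common, Zm00001d017274, Zm00001d017275, Zm00001d017276 and Zm00001d017279. NAC5 (30.6%) listed 5, among them the 3 copies of the Zm00001d051161 cluster. GLK44, a Golden2-like factor, also listed 5, from a shorter list of 11.2%. In all, 7 regulators listed at least 5 of the PAL genes.

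Lists with 4 PAL genes were those of bZIP9 (40.8%), G2 (28.1%), Zm00001d032024 (23.7%), WRKY36 (23.6%) and MYB34 (22.2%). G2 is Golden2, known for its role in chloroplast development, and its 1771 edges that are written in the table more than once held no PAL gene. HB6 (33.7%), MYBR3 (21.5%) and Orphan42 (20.2%) listed 3 PAL genes each. bHLH92 (18.6%) listed Zm00001d003015 and Zm00001d017275, and MYB21 (8.96%) listed Zm00001d017274 and Zm00001d051163. A single PAL gene was listed for bHLH47 (14.5%) and EREB115 (13.9%), Zm00001d017275 in both cases. The single gene of MYB81 (14.5%) was Zm00001d017279, that of NAC66 (7.73%) was Zm00001d017274, and that of NAC109 (3.33%) was Zm00001d003015. For Zm00001d033859, with 3.35% of all listed genes, the count was 0.

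**Figure D2:**
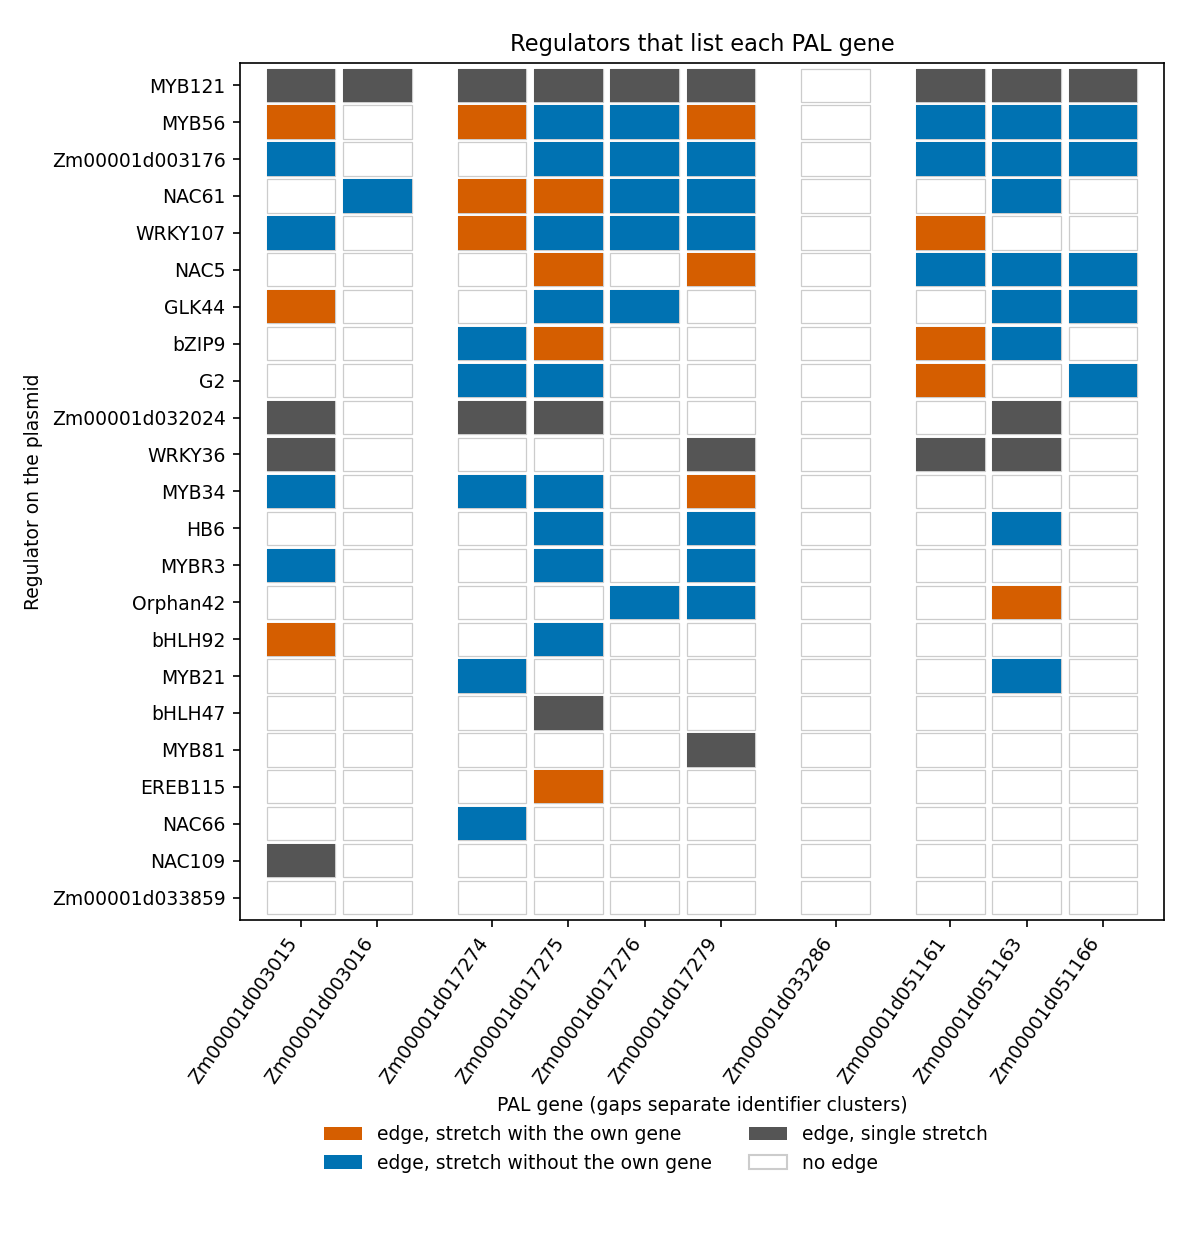
Edges of the authors' deposited table between each regulator (rows, ordered by PAL genes listed) and each of the 10 PAL genes (columns, with gaps between identifier clusters). Orange and blue cells are edges in a stretch of rows with and without the regulator's own gene, grey cells are edges of lists written in 1 stretch, and white cells are no edge: MYB121 fills 9 columns, and the column of Zm00001d033286 is empty.

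Set against list length, the share of the 9 listed PAL genes was above the share of all listed genes for 18 regulators and below it for 5. MYB121 held all 9 PAL genes with 32.8% of all listed genes, MYB56 held 88.9% of the PAL genes with 10.4% of all listed genes, and GLK44 held 55.6% with 11.2%. NAC61, with the longest list, held 66.7% of the PAL genes and 41.9% of all listed genes. The short list of NAC66 held 11.1% of the PAL genes and 7.73% of all listed genes. The long list of bZIP9 held 44.4% of the PAL genes and 40.8% of all listed genes, and that of HB6 held 33.3% of the PAL genes and 33.7% of all listed genes. The share of PAL genes listed lay below the share of all listed genes for HB6, bHLH47, MYB81, EREB115 and Zm00001d033859. A step of 1 PAL gene moves a regulator's share by 11.1 percentage points, so small distances carry no weight.

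**Figure D3:**
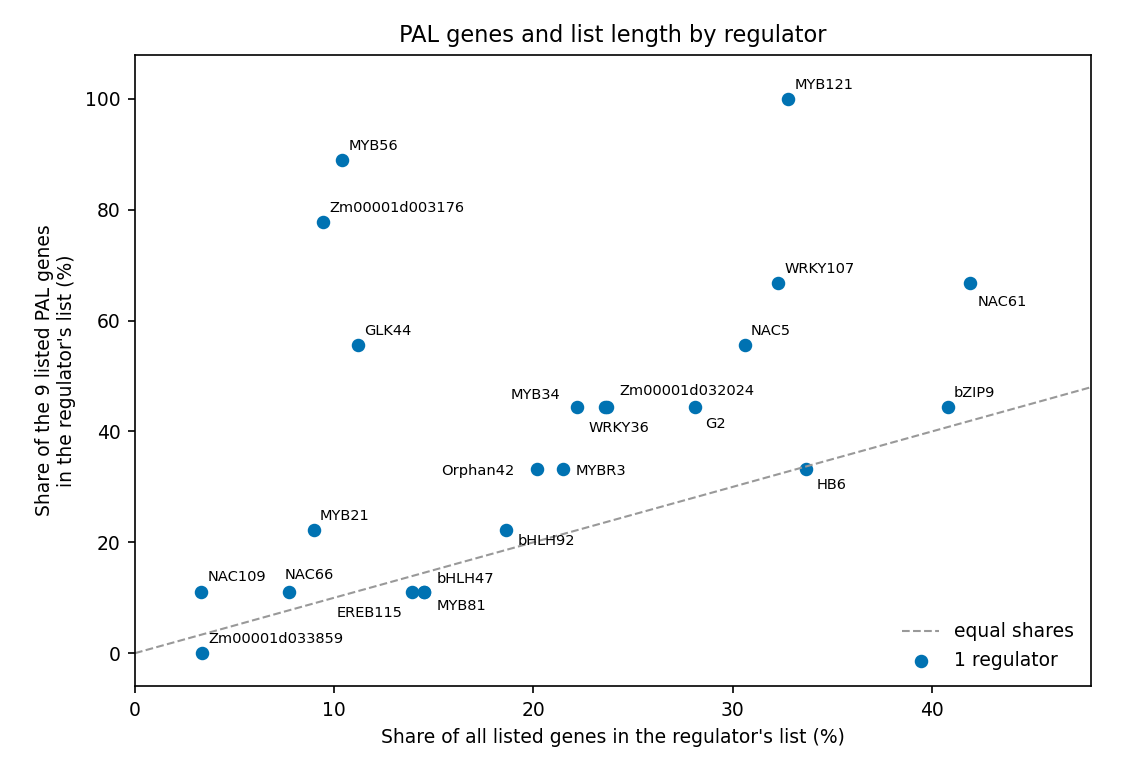
Share of the 9 listed PAL genes (vertical axis, %) against the share of all listed genes (horizontal axis, %) in the list of each regulator, 1 point per regulator, with a dashed line where both shares are equal. MYB121 with all 9, MYB56 at 88.9% and Zm00001d003176 at 77.8% lie farthest up, and 5 regulators lie below the line.

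By the family in a plasmid's name, the 5 MYB factors tied to an identifier (without MYBR3, and without ZmMYB38, whose titles give no identifier) gave 24 of 45 possible edges to listed PAL genes (53.3%), with 17.8% of all listed genes in their lists. MYB121 and MYB56 gave 17 of these 24, and MYB21 and MYB81 gave 3. The 2 WRKY factors gave 10 of 18 (55.6%, beside 28.0% for all listed genes) and the 4 NAC factors 13 of 36 (36.1%, beside 20.9%). GLK44 and G2 together gave 9 of 18 (50.0%, beside 19.7%). The 2 bHLH factors gave 3 of 18 (16.7%, beside 16.5%). Family members were few and unlike each other, so no order of families is read from these shares.

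Factors of the same batch may have been set against the same empty vector libraries. The labels name the batches, but not which libraries entered a comparison. Listings of PAL genes differed within batches. In the batch of MYB121, the other 3 factors listed 4 (WRKY36), 1 (bHLH47) and 1 (MYB81) of the PAL genes, and no PAL gene was listed for all 4 factors. In the batch of NAC61, WRKY107, NAC5 and bHLH92, Zm00001d017275 was the 1 PAL gene listed for all 4. In the batch of MYB34, MYBR3 and NAC109, Zm00001d003015 was the 1 PAL gene listed for all 3. MYB56 and NAC66 were each the 1 regulator matched to their batch, so their listings cannot be set beside others of it. The share of all listed genes common to every factor of a batch was not computed, so these overlaps have no background. Lists within a batch also differed in length. Whether shared empty vector libraries affected the listings was not tested.

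The tandem copies were then compared by the Jaccard index of their sets of regulators, which is the number of regulators that list both genes over the number that list either. Tandem pairs had a mean index of 0.38 ± 0.13 (SD, 10 pairs), and pairs of listed PAL genes from different clusters had 0.33 ± 0.12 (SD, 26 pairs). The difference was smaller than the spread among pairs. Pairs share genes and are not independent, so no test was made. For scale, 8954 pairs of listed genes with consecutive identifiers anywhere in the table had a mean of 0.17 and a median of 0.12, and 19.4% of them were above 0.3. The index depends on set size, and the median listed gene had 3 regulators. Near-identical copies can also share reads at the 3' end that the libraries cover, and how the counting treated such reads is not stated, so differences between copies are uncertain to that extent.

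The pair Zm00001d003015 and Zm00001d003016 had the lowest index of the tandem pairs. Their identifiers are consecutive, and MYB121 was the 1 regulator they shared of 12 that listed either, an index of 0.08. With 11 regulators for Zm00001d003015 and 2 for Zm00001d003016, set sizes alone kept this index low. As a share of the shorter set the pair had 0.50, as did Zm00001d017274 with Zm00001d017279. By simple matching it had 0.52, above the 0.48 of Zm00001d017274 with Zm00001d017279. Zm00001d003015 alone was listed for bHLH92, GLK44, MYB34, MYB56, MYBR3, NAC109, WRKY107, WRKY36, Zm00001d003176 and Zm00001d032024. Zm00001d003016 alone was listed for NAC61. Zm00001d003015 had a higher index with Zm00001d017275, a copy of another cluster, at 0.50 with 9 shared regulators of 18. Zm00001d017275 had 16 regulators, so set size also enters this contrast.

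In the cluster of 4, MYB121, MYB56, NAC61 and WRKY107 listed every copy. MYB34 listed 3 copies without Zm00001d017276, and Zm00001d003176 listed 3 without Zm00001d017274. A further 8 regulators listed 2 copies, 7 listed 1, and NAC109 and Zm00001d033859 listed none. Zm00001d017275 and Zm00001d017279 had the highest index of this cluster, 0.47, with 9 shared regulators of 19. Zm00001d017274 and Zm00001d017279 had the lowest, 0.29, with 5 of 17. The 7 regulators of Zm00001d017276 were all but 1 among those of Zm00001d017275, the exception being Orphan42, and also all but 1 among those of Zm00001d017279, the exception being GLK44. Of the 7 regulators that listed 1 copy, NAC66 and MYB21 listed Zm00001d017274, and bHLH47, bHLH92 and EREB115 listed Zm00001d017275. MYB81 and WRKY36 listed Zm00001d017279, and none of the 7 listed Zm00001d017276.

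In the cluster of 3, MYB121, MYB56, NAC5 and Zm00001d003176 listed every copy. Zm00001d051161 and Zm00001d051166 had 5 shared regulators of 9, an index of 0.56 and the highest among all pairs of PAL genes. G2, the fifth shared regulator, did not list Zm00001d051163. That gene was listed for HB6, MYB21, NAC61, Orphan42 and Zm00001d032024 without the other two. WRKY107 listed Zm00001d051161 alone. Across clusters, Zm00001d051163 was closest to Zm00001d017279, with an index of 0.50.

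**Figure D4:**
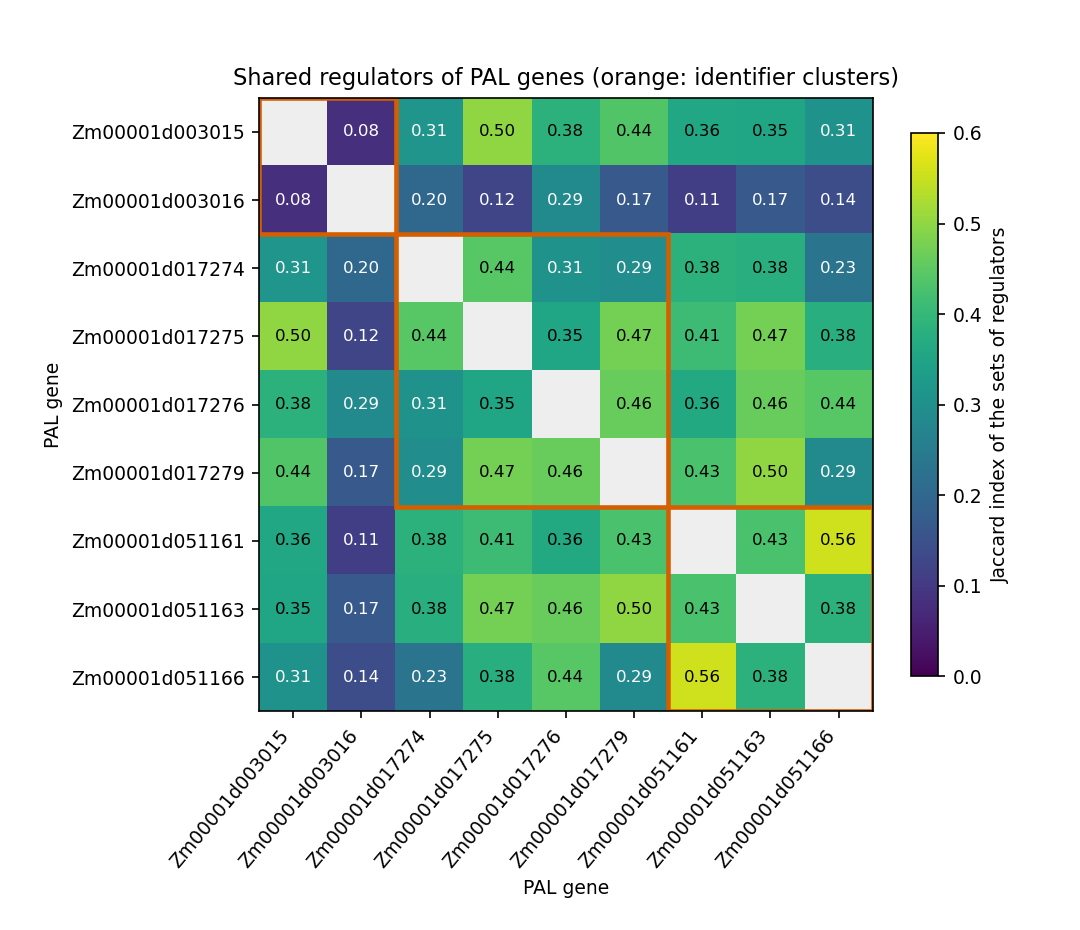
Jaccard index of the sets of regulators for each pair of the 9 listed PAL genes (both axes the genes, colour scale from 0 to 0.6), with orange frames around identifier clusters. The frame of Zm00001d003015 and Zm00001d003016 holds 0.08, the lowest value, and Zm00001d051161 with Zm00001d051166 holds 0.56, the highest.

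Rows of the authors' deposited table have an order, which was also described. The table is written in 42 stretches of consecutive rows of 1 regulator. Neither the table nor the labels say what a stretch stands for, or by what its rows are ordered. Rows did not follow identifiers, since the rank correlation of place and identifier within a stretch lay between -0.082 and 0.0248. The regulator's own gene stood in 23 stretches, in the first row of 9 of them and within the first 10 rows of 13.

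MYB121 had 6491 targets in 1 stretch, and its 9 PAL genes stood near the top. Zm00001d051161 was in row 1, Zm00001d003015 in row 2, Zm00001d003016 in row 5 and Zm00001d051166 in row 11. Zm00001d017276 was in row 74, Zm00001d051163 in row 97 and Zm00001d017279 in row 114. Zm00001d017274 was in row 151 and Zm00001d017275 in row 197. All 9 thus fell within the first 3.03% of the rows and before MYB121's own gene, which stood in row 227. Both tandem genes of the pair were among the first 5 rows, although they shared no other regulator. Genes up to row 197 had a median of 7 regulators, and the later genes also had a median of 7.

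The 75 PAL edges of the other regulators were spread over their stretches, with a median place of 42.8% of the rows and a range of 0.383% to 95.1%. The limit of 3.03% used next is the place of the last MYB121 PAL edge, so all PAL edges of MYB121 lie within it by construction. Of the 75 edges of other regulators, 8 stood within the first 3.03%. They were Zm00001d051163 and Zm00001d017275 for MYB56 (rows 4 and 26 of 1044), the same genes for Zm00001d003176 (rows 7 and 37 of 1335), Zm00001d017279 for Orphan42 (row 6 of 1438), Zm00001d017275 for Zm00001d032024 (row 50 of 4696), Zm00001d051163 for NAC5 (row 83 of 4501) and Zm00001d017274 for bZIP9 (row 100 of 3399). The Zm00001d003176 edges came from the stretch of 1335 rows whose genes were all in the MYB56 list, with PAL genes in the same order. They are thus not independent of the MYB56 edges. For NAC61, with the longest list, the 6 PAL genes stood between 43.0% and 95.1%.

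**Figure D5:**
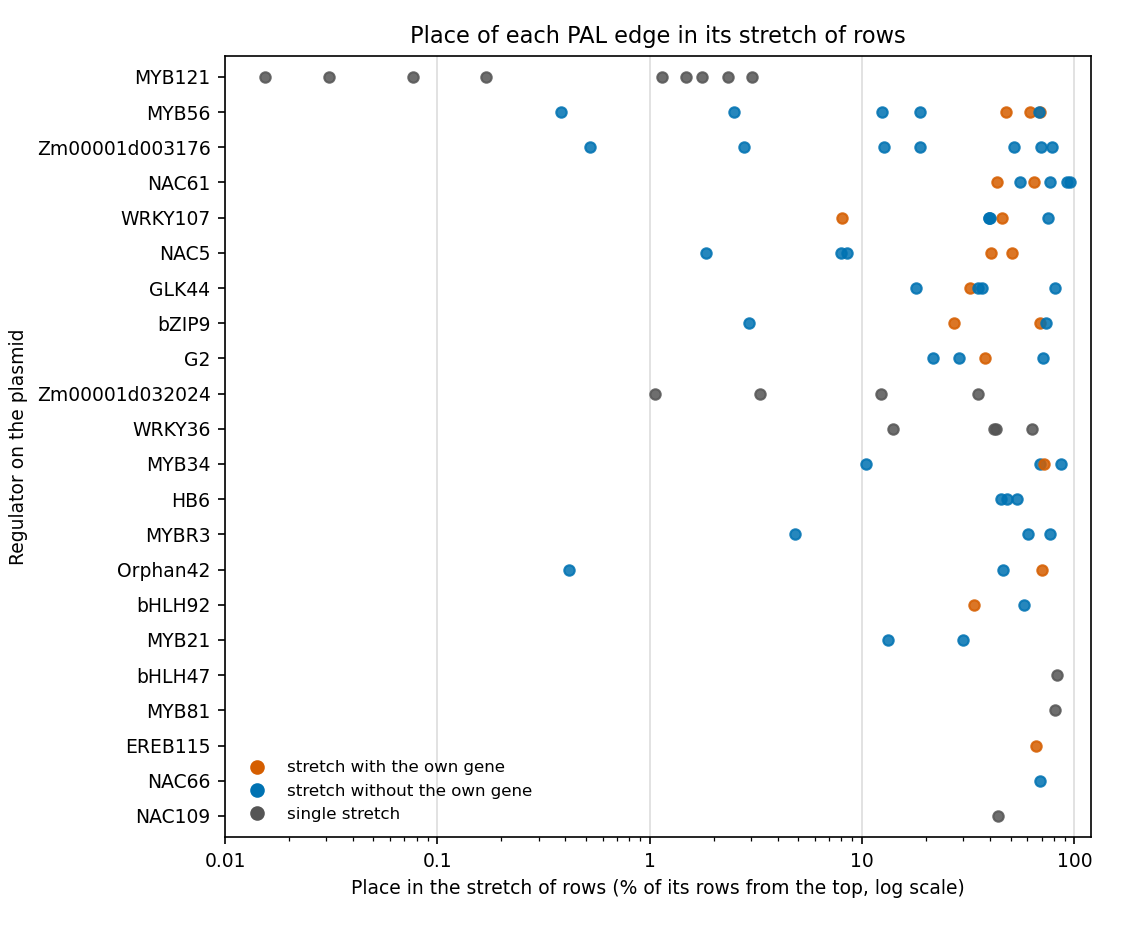
Place of each PAL edge in its stretch of rows (horizontal axis, % of rows from the top, log scale) by regulator (vertical axis), 1 point per edge, coloured by whether the stretch holds the regulator's own gene. The 9 points of MYB121 lie between 0.0154% and 3.03%, and the other 75 lie between 0.383% and 95.1%.

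For 17 regulators the list was written in more than 1 stretch, and PAL genes of the same regulator were often divided between them. Of the 14 such regulators with at least 2 PAL genes, 10 had PAL genes both in a stretch with their own gene and in one without it. The same count was not made for other genes, so the division is not read as particular to PAL genes. MYB56 had Zm00001d003015, Zm00001d017274 and Zm00001d017279 in the stretch with its own gene and the other 5 in the stretch without it. NAC61 had Zm00001d017274 and Zm00001d017275 with its own gene and Zm00001d003016, Zm00001d017276, Zm00001d017279 and Zm00001d051163 without it. NAC5 divided by cluster, with Zm00001d017275 and Zm00001d017279 beside its own gene and the 3 copies of the Zm00001d051161 cluster in the other stretch. Zm00001d003176, with 7 PAL genes, HB6, MYBR3 and MYB21 had all their PAL genes in the stretch without the own gene.

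Over these 17 regulators, 17 of 64 PAL edges (26.6%) stood in a stretch with the own gene, beside 45.5% of all their rows. Without Zm00001d003176 it was 17 of 57 (29.8%, beside 45.9%), an alternative chosen after the data were seen. By gene, Zm00001d051163 had 1 edge with the own gene and 8 without it, and Zm00001d017276 had 0 and 6. Zm00001d051166 had 0 and 5, Zm00001d017275 had 4 and 9, and Zm00001d051161 had 3 and 3.

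Among regulators with exactly 2 stretches, which share no gene, tandem copies listed for 1 regulator stood in the same stretch in 26 of 41 cases (63.4%), and PAL genes of different clusters in 45 of 81 (55.6%). In the cluster of 3 it was 10 of 11 cases, with bZIP9 the exception, and in the cluster of 4 it was 16 of 30. Without Zm00001d003176 these were 7 of 8 and 13 of 27. A case is a pair of genes under 1 regulator, so cases of the same regulator are not independent. In the cluster of 3, the same-stretch cases came from MYB56, NAC5, Zm00001d003176 and GLK44 alone. Stretches of 1 regulator can be unequal (4501 and 1544 rows for NAC5), which by itself puts more pairs in the same stretch. The share for all gene pairs of these lists was not computed. In the cluster of 4, Zm00001d017274 and Zm00001d017276 shared 3 such regulators and stood in different stretches in all 3. WRKY107 had Zm00001d017275, Zm00001d017276 and Zm00001d017279 in rows 1697, 1707 and 1712 of a stretch of 4291, and Zm00001d017274 in its other stretch.

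Genes beside the PAL copies were mostly not listed. Of 29 identifiers within 3 of a member, 8 were targets of any regulator, with a median of 3 regulators among those 8. The median over all listed genes was also 3. None of the 5 identifiers that lie between tandem copies was listed (Zm00001d017277, Zm00001d017278, Zm00001d051162, Zm00001d051164 and Zm00001d051165), and neither were the 6 that flank the cluster of 3. The neighbours with the most regulators were Zm00001d017271 with 11, Zm00001d003019 with 10 and Zm00001d017282 with 7. Zm00001d017271 shared 7 regulators with Zm00001d017274, an index of 0.50, and Zm00001d017282 shared 6 with Zm00001d017279, an index of 0.46. Zm00001d003019 shared NAC61 alone with its near neighbour Zm00001d003016. Zm00001d033284, with 4 regulators, and Zm00001d033287, with 2, flanked the unlisted Zm00001d033286. Zm00001d003012 and Zm00001d003017 were listed for MYB121 alone and Zm00001d003014 for Zm00001d032024 alone. Whether an identifier without an edge was expressed or counted is not stated. The share of all identifiers that are listed as targets was not computed. The counts of listed neighbours therefore have no background, and no contrast with the PAL copies is read from them.

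For each member with at least 5 regulators, the gene outside the family with the most similar set of regulators was named, over all 23 regulators. Zm00001d017275 had a gene with an identical set of 16 regulators, Zm00001d047077. Zm00001d017276 was closest to Zm00001d012674, with 7 shared of 8 and an index of 0.88. Zm00001d017279 shared 11 of 13 with Zm00001d003070 (0.85), 1 of 4 genes at that index. Zm00001d051166 shared 5 of 6 with Zm00001d002542 (0.83), 1 of 3 genes at that index. An index of 0.80 was reached by Zm00001d017274 with Zm00001d009702, by Zm00001d051161 with Zm00001d033391 and by Zm00001d051163 with Zm00001d012304. Zm00001d003015 was closest to Zm00001d042288, with 10 shared of 14 (0.71). Each of these genes was closer to its PAL member than any other PAL gene was, the highest index within the family being 0.56. The nearest gene was taken from 19787 listed genes, against far fewer PAL genes. The larger pool by itself favours a closer match outside the family, so no contrast is read from it. These indices are a description.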

How the data were processed

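The authors deposited 1 table whose unit is other than a measurement: text identifiers of a regulator, a target and both joined by a hyphen, per the file headers. The submitters' processing notes name the build B73 RefGen_v4 and the tools featureCounts and edgeR. Their versions and thresholds, and how batches and nitrogen conditions were combined, are not stated. Libraries were Lexogen QuantSeq 3' mRNA libraries, per the labels' protocols. Depth per library is unknown.

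Of 94256 rows, the 92485 distinct edges were used. Regulators were named by the identifier in sample titles. The background is the share of the 19787 listed genes in a list, since the genes the authors tested are not given. A stretch is a run of consecutive rows of 1 regulator. No test was made. Named genes were all members, all regulators, identifiers within 3 of a member and, for members with at least 5 regulators, the non-member with the highest Jaccard index. The members and comparisons were chosen with earlier results of these data known. A list of other phenylpropanoid genes by description could not be made, since the reference gene table held no descriptions and no matching identifiers. Sequences were not used here. Functions were tested on simulated data with Python 3.11.15, pandas 2.3.3, numpy 2.4.6 and scipy 1.17.1; figures used matplotlib 3.10.9.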

Additional observations from a re-analysis of the deposited data

How the results depend on the processing

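Leaving out the longer stretch of Zm00001d003176 gave 77 PAL edges in place of 84, leaving out MYBR3 and NAC109 gave 80, and leaving out the 3 regulators matched to no plasmid gave 73. With G2 left out, chosen after the data were seen, it was 80. Edges numbered 75 to 84 without each regulator in turn and 65 to 83 without the factors of each batch. The median of 9 regulators per PAL gene lay between 7 and 9 over the settings run for it. The count of 7 regulators with at least 5 PAL genes was 4 without the batch of NAC61, WRKY107, NAC5 and bHLH92, which holds 3 of the 7, and 6 to 7 without single regulators. It was 12 with at least 4 PAL genes, a lower minimum by construction, and 5 with at least 6. Zm00001d003016 had 1 regulator in place of 2 without MYB121 or NAC61. The mean Jaccard index of 0.38 between tandem copies was 0.33 to 0.39 without each regulator, 0.34 to 0.41 without each batch and 0.35 to 0.41 without each copy. As a share of the shorter set it was 0.73, and by simple matching over all regulators 0.61, both on another scale by construction. On neither of these scales were tandem pairs higher on average than pairs of listed PAL genes from different clusters. Against genes with 2 or more regulators, the share of possible edges was 26.0% in place of 20.3%. No paired analysis was possible because edges carry no value for single libraries, and leaving out replicates was not run for the same reason. Depth is unknown.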

Other observations

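Besides the 4 PAL genes, the first 11 rows of the MYB121 list held 7 other genes, chosen here after the order of rows was seen. They were Zm00001d037194 in row 3 and Zm00001d013529 in row 4, then Zm00001d006236, Zm00001d002342, Zm00001d014467, Zm00001d053060 and Zm00001d017785 in rows 6 to 10. These genes had 2 to 12 regulators each, with Zm00001d013529 at 12 and Zm00001d017785 at 2. The table and the reference gene table give them no name.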
